A study of Mus musculus with 8 samples.

Results

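The mRNAs of 10 proteins of the cytosolic ribosome were followed in pull-downs of Exosc10 from the mouse embryonic cortex. They were chosen by gene identity: Rplp0, Rpl3, Rpl4, Rpl5 and Rpl32 of the large subunit, and Rps2, Rps3, Rps6, Rps14 and Rps18 of the small subunit. All 10 Ensembl IDs were present among the 54838 genes counted, and all 10 had enough reads to stand among the 16716 genes tested. The samples came from the cortex of C57BL/6 mouse embryos at embryonic day 12.5, as cells dissociated and held on a dish before lysis. RNA immunoprecipitation sequencing recovers a protein with an antibody and sequences the RNA bound to it or carried along. The Exosc10 group (n = 4) was made with a rabbit antibody against Exosc10, and the mock group (n = 4) with normal rabbit IgG. The labels name no mutation, transgene or drug in either group. Nor do they tie the libraries to separate litters or cultures, so p-values rest on the spread between libraries alone, which may be technical.

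The cytosolic ribosome joins a small subunit, which reads the mRNA, to a large subunit, which forms the peptide bond. Its proteins are made in matched amounts, and their mRNAs are among the most heavily translated of growing cells, such as the progenitors of the early cortex. Many of these mRNAs begin with a terminal oligopyrimidine (TOP) tract, a C followed by a run of C and T, through which mTOR signalling sets their translation. Exosc10 is an exonuclease of the nuclear RNA exosome, a complex known for trimming ribosomal RNA precursors and for degrading nuclear transcripts.

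The start regions of the members are given because a TOP tract is the sequence feature for which this gene family is known, and the choice by name did not use it. RefSeq promoter sequences of build GRCm38.p6 matched 7 of the 10 symbols. The windows below run, on the sense strand, from 40 bases before the annotated transcription start to 20 bases from it. Rps6 (chr4:86857348-86857407, minus strand) and Rps18 (chr17:33955646-33955705, minus strand) have a C at the annotated start and count 9 pyrimidines from it. The run begins 1 base earlier in Rps6 and 2 bases earlier in Rps18, again with a C. Rpl5 (chr5:107900488-107900547, plus strand) holds a run of 9 pyrimidines that opens with a C 20 bases before the start. The RefSeq gene span of Rpl5 opens at that C, at base 107900508, so its annotated start differs between the promoter entry and the gene span. Rps3 (chr7:99483690-99483749, minus strand) and Rplp0 (chr5:115559427-115559486, plus strand) are shown as members without a tract at the annotated start. Capitals mark the pyrimidines from the annotated start on or, failing that, the longest run from a C within 50 bases of it where that run lies in the window.
Rps6: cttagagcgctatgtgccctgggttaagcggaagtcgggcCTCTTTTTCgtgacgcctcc
Rps18: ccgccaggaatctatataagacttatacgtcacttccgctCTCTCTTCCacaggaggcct
Rpl5: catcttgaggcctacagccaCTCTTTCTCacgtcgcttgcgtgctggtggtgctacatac
Rps3: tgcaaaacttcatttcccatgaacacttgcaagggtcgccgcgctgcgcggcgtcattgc
Rplp0: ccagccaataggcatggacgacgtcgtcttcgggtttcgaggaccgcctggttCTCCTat

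A C at the annotated start with at least 4 pyrimidines after it, read on the sense strand, was found in 2 of the 7 member entries and in 2.51% of all 32851 promoter entries. Starts were those of the promoter entries, so Rpl5 was not among the 2. A run of at least 8 pyrimidines from a C within 50 bases of the start, on the same strand, was found in 5 of the 7 and in 28.8% of all entries. The 5 were Rpl4, Rpl5, Rps2, Rps6 and Rps18, and in Rpl4 and Rps2 the run opened 26 and 40 bases after the start. The promoter window of Rps2 (chr17:24720023-24720082, plus strand) lies well inside its RefSeq gene span, which opens at base 24718121. Its entry thus describes a start other than that of the gene span. Annotated starts can also lie some bases from the start used in these cells. A match describes the letters in this window and no match says only that they are not there.

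Libraries held 20967743 to 34506709 gene counts, and the library numbered 1 was the shallowest of its group in both groups. These libraries also stood apart in rank. Among the 4 Exosc10 libraries, library 1 had the highest value of 38.2% of all tested genes and the lowest value of 37.7%. Among the 4 IgG libraries the shares for library 1 were 35.9% and 33.1%. Results are therefore given with all libraries and without both libraries numbered 1. Values are in CPM, a gene's reads for every 1000000 reads of its library after TMM scaling, so each is a share of its pull-down. In such bulk samples fewer cells with an mRNA and less of it per cell cannot be told apart, and no input RNA was analysed here.

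With all libraries and no block for the replicate number, none of the 10 mRNAs passed an adjusted p of 0.05 in either direction. The test was edgeR's quasi-likelihood test of Exosc10 against IgG. Over all 16716 genes tested, 7.92% were called higher and 5.82% lower. At an unadjusted p under 0.05, 3 of the 10 members passed, all lower with Exosc10 (Rplp0, Rps3 and Rps14), against 14.8% of all tested genes in that direction. DESeq2 called 1 member lower, Rps3, where it called 9.04% of all genes lower and 11.1% higher. Limma-voom with sample weights called 4 members lower, where it called 18.0% of all genes lower and 20.1% higher. No member was called higher by any of the 3 tools. These fits ignored the replicate number, so any deviation common to namesake libraries counted as spread within the groups. With the number as a block and all libraries kept, edgeR called Rpl32, Rps3 and Rps14 lower, at adjusted p of 0.0258, 0.0219 and 0.0402. No member was called higher there, and 12.0% of all genes were called lower and 14.9% higher. In edgeR without the block, the log2 fold changes of Exosc10 over IgG had a median of -0.32 over the 10 members and -0.03 over all tested genes. They were below 0 for 8 of the 10 members and for 8764 of the 16716 genes. The 2 libraries numbered 1 moved the members' median in opposite directions. It was -0.55, with 10 of 10 below 0, without Exosc10 library 1, and -0.023, with 6 of 10 below 0, without IgG library 1. Without both it was -0.21, with 8 of 10 members and 8876 of 16963 genes below 0. How many of all genes were below 0 without 1 library alone was not examined. The medians were -0.23 for the 5 large subunit members and -0.40 for the 5 small subunit members. Members are not replicates of one another, and no test was made over the list. In none of the 10 did the values of the 2 groups separate, while 10.6% of all tested genes were higher without overlap and 8.45% lower.

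**Figure D1:**
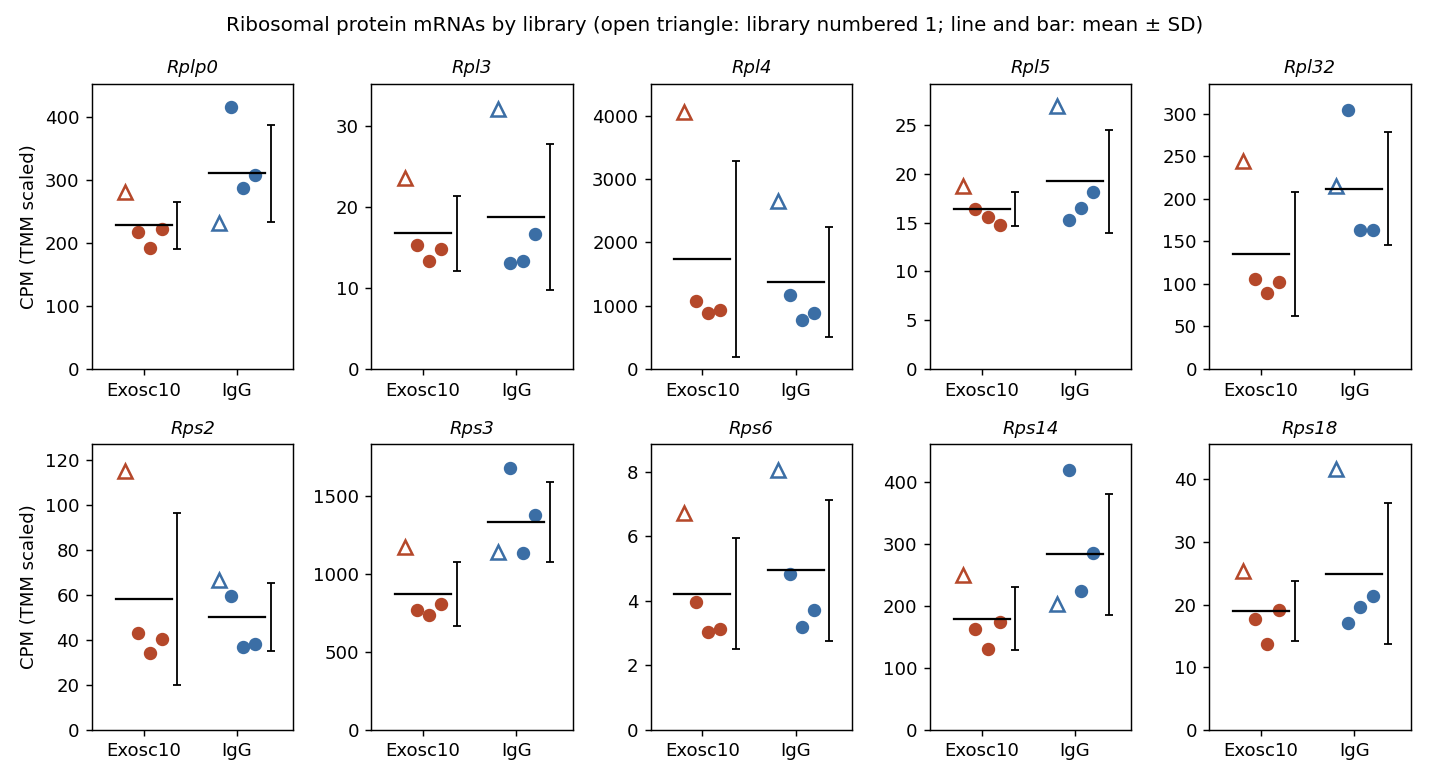
CPM (TMM scaled, linear axis from 0, own scale per panel) of each of the 10 mRNAs in the 4 Exosc10 and 4 IgG libraries; open triangles are the libraries numbered 1, lines are group means and bars are ± SD. The triangle is the highest Exosc10 value in all 10 panels, and without the triangles the groups separate in Rplp0, Rpl32, Rps3 and Rps14.

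Among the large subunit members, Rplp0 (ENSMUSG00000067274) encodes the base of the stalk that recruits elongation factors. It stood at 281, 218, 192 and 222 CPM in Exosc10 libraries 1 to 4 and at 232, 416, 288 and 308 CPM in IgG libraries 1 to 4. The groups overlapped only through the libraries numbered 1. The means were 228 ± 37.9 and 311 ± 77.1 CPM (SD, n = 4 each), and the log2 ratio of Exosc10 to IgG was -0.45 ± 0.21 (SE). Its 95% confidence interval reached from -0.89 to -0.01, but it did not pass adjustment over all genes (edgeR adjusted p = 0.156).

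Rpl32 (ENSMUSG00000057841), which encodes another protein of the large subunit, stood at 245, 105, 89.9 and 102 CPM in Exosc10 libraries 1 to 4, and at 216, 305, 164 and 163 CPM in IgG libraries 1 to 4. A single Exosc10 library lay among the IgG values, and the other 3 lay below all of them. Its log2 fold change of -0.64 ± 0.31 (SE) had an interval of -1.30 to 0.01 and did not pass (edgeR adjusted p = 0.172).

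Rpl4 (ENSMUSG00000032399), whose protein lines the tunnel through which the new peptide leaves, was the most heavily counted member and ranked 20 of 16716 genes by mean CPM. It stood at 4060, 1076, 882 and 931 CPM in Exosc10 libraries 1 to 4. In IgG libraries 1 to 4 it stood at 2662, 1176, 779 and 885 CPM. Both libraries numbered 1 were far above the rest, which lay in one range for both pull-downs. The log2 fold change of 0.34 ± 0.48 (SE) had the widest interval of the 10 members, from -0.70 to 1.37 (edgeR adjusted p = 0.680).

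Rpl3 (ENSMUSG00000060036) encodes a protein beside the peptidyl transferase centre. The product of Rpl5 (ENSMUSG00000058558) binds a short ribosomal RNA of the large subunit and, outside the ribosome, Mdm2. Rpl3 ranged from 13.3 to 23.6 CPM with Exosc10 and from 13.1 to 32.1 CPM with IgG. Rpl5 ranged from 14.8 to 18.8 CPM with Exosc10 and from 15.3 to 27.0 CPM with IgG. Their log2 fold changes were -0.17 (interval -0.78 to 0.45) and -0.23 (interval -0.67 to 0.21), and the groups overlapped in both. Without IgG library 1 the value of Rpl5 was -0.016 and that of Rpl3 was 0.23.

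Of the small subunit members, Rps3 (ENSMUSG00000030744) came nearest to the threshold. Its protein lies at the channel where mRNA enters the ribosome and also acts in DNA repair. It stood at 1175, 768, 736 and 807 CPM in Exosc10 libraries 1 to 4 and at 1140, 1680, 1136 and 1381 CPM in IgG libraries 1 to 4. Exosc10 library 1 lay just above the lower pair of IgG libraries, and all other Exosc10 libraries lay well below the IgG group. The means were 871 ± 205 and 1334 ± 257 CPM (SD, n = 4 each). With an interval of -1.06 to -0.17, the log2 fold change of -0.61 ± 0.21 (SE) missed the threshold (edgeR adjusted p = 0.0637).

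Rps14 (ENSMUSG00000024608), which encodes a protein of the platform of the small subunit, stood at 250, 162, 130 and 173 CPM in Exosc10 libraries 1 to 4. In IgG libraries 1 to 4 it stood at 202, 419, 224 and 286 CPM. Again Exosc10 library 1 lay within the IgG values and IgG library 1 was the lowest of its group. The log2 fold change, the lowest of the 10, was -0.66 ± 0.25 (SE), between -1.20 and -0.12 by its interval (edgeR adjusted p = 0.0947).

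Rps2 (ENSMUSG00000044533), whose protein lies beside the mRNA entry channel, stood at 115, 43.2, 34.0 and 40.3 CPM in Exosc10 libraries 1 to 4 and at 66.7, 59.4, 36.9 and 37.9 CPM in IgG libraries 1 to 4. Its log2 fold change of 0.21 (interval -0.52 to 0.94) was the only one above 0 besides that of Rpl4. Rps6 (ENSMUSG00000028495), which encodes the substrate of the S6 kinases downstream of mTOR, ranged from 3.04 to 6.72 CPM with Exosc10 and from 3.18 to 8.07 CPM with IgG, on 77 to 180 reads per library. Rps18 (ENSMUSG00000008668), which encodes a protein of the head of the small subunit, ranged from 13.7 to 25.3 CPM and from 17.1 to 41.6 CPM. Their log2 fold changes were -0.24 (interval -0.97 to 0.50) and -0.40 (interval -0.99 to 0.19), and without IgG library 1 they were 0.11 and -0.030.

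Without both libraries numbered 1 (n = 3 each), 4 of the 10 mRNAs were called lower in the Exosc10 pull-down and none higher by the same edgeR test and threshold. In that fit 15.1% of 16963 genes were called lower and 17.1% higher. The 4 were Rplp0, Rpl32, Rps3 and Rps14, and in each the 3 Exosc10 values lay below the 3 IgG values, as they did in 22.4% of all genes tested there. No member was higher without overlap, against 23.6% of those genes. Rpl32 fell from 209 ± 80.5 CPM with IgG to 98.1 ± 8.04 CPM with Exosc10 (SD, n = 3 each), so that its share was 2.13-fold higher with IgG. Its log2 fold change was -1.09 ± 0.21 (SE) at an edgeR adjusted p of 0.00111. Rps14 was at 307 ± 98.7 and 154 ± 22.5 CPM (SD, n = 3 each). The log2 ratio for Rps14 was -0.998 ± 0.197 (SE), at an edgeR adjusted p of 0.00149. Rps3 had a log2 fold change of -0.86 ± 0.15 (SE, edgeR adjusted p = 0.000705), and Rplp0 one of -0.68 ± 0.15 (SE, edgeR adjusted p = 0.00357).

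The other 6 mRNAs were not called in that fit. Rpl4 had a log2 fold change of 0.02 with an interval of -0.32 to 0.37, and Rpl3 one of 0.01 with an interval of -0.35 to 0.37. The intervals were -0.43 to 0.24 for Rpl5, -0.58 to 0.19 for Rps2 and -0.58 to 0.16 for Rps18. That of Rps6, the member with the fewest reads, was wider, at -0.80 to 0.38. The median over the 10 members was -0.21, against -0.04 over all genes tested. That these 6 differ from the 4 called was not tested. Either library numbered 1 changed the calls by itself. Without Exosc10 library 1, Rpl32, Rps3 and Rps14 were called lower, at adjusted p of 0.00644, 0.0132 and 0.0291 in edgeR, in a fit that called 6.55% of genes lower. Without IgG library 1, Rplp0, Rps3 and Rps14 were called lower, at 0.0476, 0.0322 and 0.0383, where 10.7% of genes were. Leaving out any other library alone gave no call, in fits that called only 1.54% to 2.79% of all genes lower. The fit with all libraries called 5.82% lower. The fit without IgG library 2, which called 2.79% of genes lower, gave Rplp0, Rpl32, Rps3 and Rps14 their smallest log2 fold changes in size. These were -0.27, -0.41, -0.48 and -0.41.

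**Figure D2:**
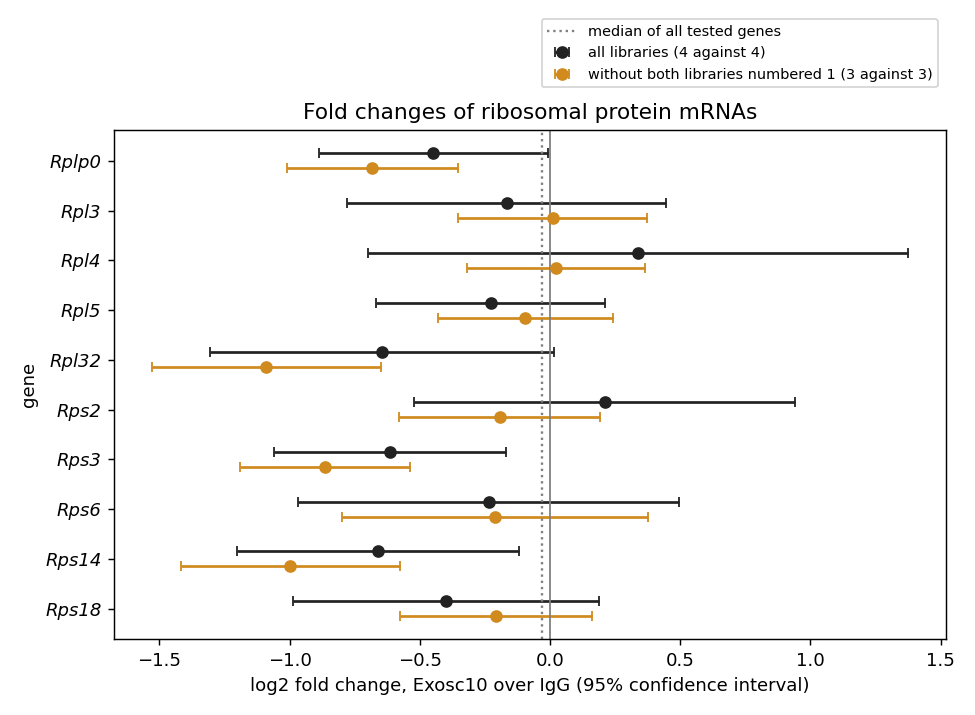
Log2 fold change of Exosc10 over IgG with its 95% confidence interval for each of the 10 mRNAs, with all libraries (black, 4 against 4) and without both libraries numbered 1 (orange, 3 against 3); the dotted line is the median of all tested genes, -0.03. Without the libraries numbered 1, the intervals of Rplp0, Rpl32, Rps3 and Rps14 lie below 0 and those of the other 6 mRNAs include 0.

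In both groups the spread between libraries was larger for the median member than for the median gene. The median SD of log2 CPM within a group was 0.38 for the members and 0.25 for the 11850 tested genes at or above the lowest member's mean CPM in the Exosc10 group. In the IgG group these medians were 0.45 and 0.28. Rplp0 (0.23) and Rpl5 (0.15) lay below the median gene in the Exosc10 group, and Rps3 (0.27) did so in the IgG group. In the Exosc10 group all 10 members were highest in library 1, and 9 of the 10 were lowest in library 3, the exception being Rpl5. Over all tested genes, 38.2% were highest in library 1 and 28.7% lowest in library 3. The excess of Exosc10 library 1 over the mean of the other Exosc10 libraries was smallest for Rpl5 and reached 2.94-fold for Rps2 and 4.22-fold for Rpl4, a ratio that 0.227% of all tested genes reached or passed.

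In the IgG group the members divided. Rpl3, Rpl4, Rpl5, Rps2, Rps6 and Rps18 were highest in library 1, at 1.49-fold (Rps2) to 2.81-fold (Rpl4) the mean of the other IgG libraries. The ratio of Rpl4 was reached or passed by 1.91% of all tested genes. Rplp0, Rpl32, Rps3 and Rps14 were highest in library 2, and in IgG library 1 they stood at 0.653-fold (Rps14) to 1.02-fold (Rpl32) that mean. Over all tested genes, 35.9% were highest in IgG library 1 and 25.1% in IgG library 2. The second set holds the same genes as the calls made without the libraries numbered 1, and each set mixes both subunits. This match is at least partly built in. Leaving out Exosc10 library 1, the highest for all 10, lowers the Exosc10 mean of every member and takes away much of the spread. Rpl32 had a log2 fold change of -1.09 without Exosc10 library 1 alone and also without both libraries numbered 1. Leaving out IgG library 1 lowers the IgG mean of every mRNA of the first set and raises that of Rplp0, Rps3 and Rps14. The sets also differ in count level. The second ranked 43 to 1242 by mean CPM, and the first, apart from Rpl4 at 20, ranked 5048 to 11850. Pearson correlations of log2 CPM over the 8 libraries had a median of 0.87 over the 21 pairs within a set and of 0.26 over the 24 pairs between the sets. The sets were drawn from these same values, the libraries share depth and group, and the correlations are descriptions only. The closest pairs were Rplp0 with Rps14 (0.98), Rps3 with Rps14 (0.96) and Rpl4 with Rps2 (0.95), and the lowest was Rplp0 with Rpl3 (-0.14).

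**Figure D3:**
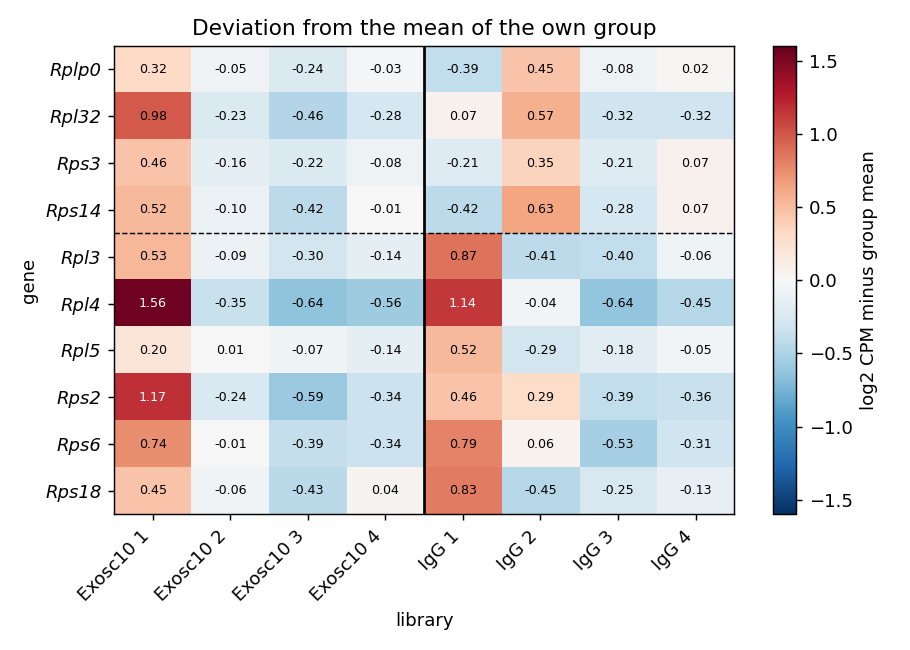
Deviation of log2 CPM from the mean of the gene's own group for the 10 mRNAs (rows) in the 8 libraries (columns), in red above and in blue below the group mean. Above the dashed line are the 4 mRNAs highest in IgG library 2, below it the 6 highest in IgG library 1; all 10 are above their mean in Exosc10 library 1.

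Together the 10 mRNAs took 0.616%, 0.247%, 0.205% and 0.230% of all gene counts in Exosc10 libraries 1 to 4, and 0.492%, 0.409%, 0.255% and 0.314% in IgG libraries 1 to 4. The means were 0.325% ± 0.195 and 0.368% ± 0.104 (SD, n = 4 each), and the groups overlapped. Rpl4 alone made up 65.5% of the members' counts in Exosc10 library 1 and 57.5% in IgG library 1. In the other libraries it made up at most 44.4% with Exosc10 and at most 29.1% with IgG. With Rpl4 left out, the other 9 took 0.213%, 0.138%, 0.119% and 0.138% in the Exosc10 libraries and 0.209%, 0.292%, 0.181% and 0.225% in the IgG libraries. Exosc10 libraries 2 to 4 then lay below all IgG libraries, and Exosc10 library 1 lay among them.

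**Figure D4:**
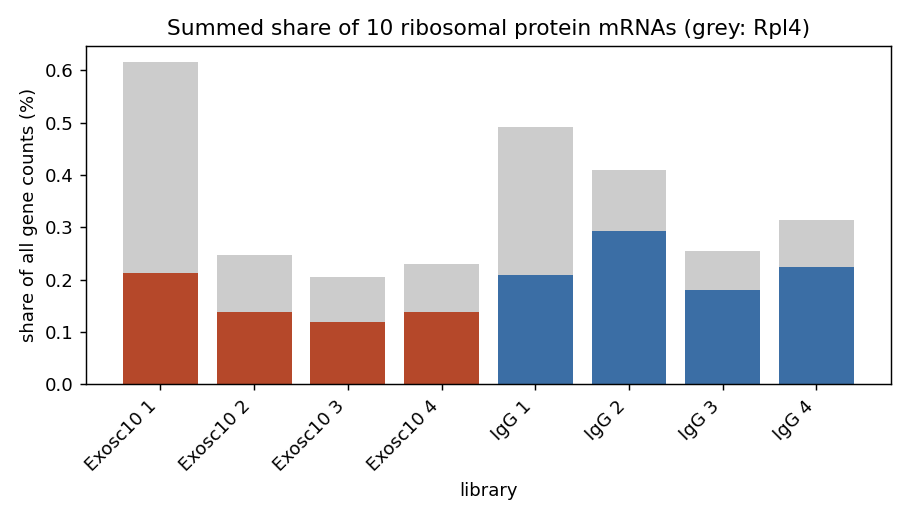
Share of all gene counts (percent, bars from 0) taken by the 10 mRNAs in each library, with Rpl4 in grey and the other 9 in colour. The tallest bars are the libraries numbered 1, at 0.616% and 0.492%, and Rpl4 is their larger part.

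The members were counted at very different levels, which bears on what their rows measure. CPM was not divided by transcript length, so it does not rank molecules. Rpl4, Rps3, Rplp0, Rps14 and Rpl32 ranked 20, 43, 603, 790 and 1242 of 16716 by mean CPM. Rps2, Rps18, Rpl5, Rpl3 and Rps6 ranked 5048, 8394, 9033, 9041 and 11850, although ribosomal protein mRNAs are known as abundant in growing cells. Ribosomal protein genes have many processed copies in the mouse genome, and reads that fit several copies may be dropped or divided at counting. The RefSeq table names 12 copies after Rps2, 6 after Rps18, 4 after Rps6, 3 after Rpl32, 2 each after Rpl3 and Rpl5, 1 after Rplp0 and none after Rpl4, Rps3 or Rps14. Copies under other names were not counted. How multiply mapping reads were treated is not given in the sources used here, so the levels of members with near-identical copies are uncertain, and the part of the copies in these levels was not tested.

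Several members also span genes of small nucleolar RNAs, guides of ribosomal RNA modification that are usually cut from introns. By position in the RefSeq table, 5 such genes lie within Rpl4 (chr9:64173387-64178562), 3 each within Rpl3 and Rpl5, 2 each within Rps2 and Rps3 (chr7:99477896-99483709) and 1 within Rpl32 (chr6:115805514-115808743). None lies within Rplp0 (chr5:115559467-115563729), Rps6 or Rps18. Spans holding such genes were thus found both among the mRNAs called lower without the libraries numbered 1 and among the others. Position alone does not show which gene hosts them, as for the 2 within Rps2, whose span also holds a noncoding gene. Rpl5 overlaps Dipk1a, Rpl32 overlaps Cand2, and the noncoding gene Snhg9 lies within the span of Rps2. The strand setting of the counting is not given, so some reads in these 3 rows could belong to the overlapping gene.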

How the data were processed

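The authors deposited one table per library with raw read counts for 54838 Ensembl gene IDs. Per the submitters' processing notes, reads were handled with bcl2fastq 2.17.1.14, featureCounts 1.5.0-p1 and STAR 2.5.2a, on build mm10. The annotation release, strand setting and handling of duplicates are not given in the sources used here. Groups and replicate numbers came from the titles.

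Counts were tested as deposited with edgeR 4.0.16 in R 4.3.3: filterByExpr (minimum count 10, minimum total 15), TMM scaling and a quasi-likelihood F-test without covariates, with Benjamini-Hochberg adjustment over all genes, read at 0.05. The SE is the absolute log2 fold change divided by the square root of F. Log2 CPM used a prior count of 2. The fit was also run on counts simulated from its own dispersions, to see whether fold changes set in advance were recovered. That simulation held no deviation shared by libraries of the same number, so it cannot speak to the calls made here. Alternatives used DESeq2 1.42.0, limma-voom (limma 3.58.1), other scalings and filters, thinning, the replicate number as a block, and fewer libraries.

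Members were identified by the Ensembl IDs given for them and all are named. The members and lists were chosen with earlier results of these data known. The RefSeq table (GRCm38.p6) pairs no Ensembl IDs with symbols. The 11 further lists by symbol (other ribosomal proteins, other TOP mRNAs, cell type markers) and the genes most like the members were therefore not analysed here, and the tissue label was not checked against markers.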

Additional observations from a re-analysis of the deposited data

Results flagged for a closer look

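In 22 groups of 4 libraries (the 10 members and their summed share, in each pull-down), 5 had a library far from the others by Dixon's test, all Exosc10 library 1 as the highest. Chance gives this in about 1 in 20 such groups, and the 5 share a library and are not independent. Rpl4 stood there at 4060 CPM, against 1076 in the next library. Rpl32 stood at 245 CPM against 105. Rps2 stood at 115 CPM against 43.2. Rps3 stood at 1175 CPM against 807. The summed share of the 10 members was 0.616% against 0.247%. No IgG library passed the test.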

How the results depend on the processing

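No member was called higher under any alternative. Against 0 members called lower, 1 was called with the upper quartile (8.19% of all genes tested were) and with DESeq2 (9.04%). The count was also 1 without a filter (3.49%) and with a mean of at least 5 CPM (9.92%). The member called was Rps3 in each but the fit without a filter, where it was Rps14. There were 4 such members with limma-voom (18.0%) and 4 without both libraries numbered 1 (15.1%). Leaving out 1 library gave 0 to 3, in fits that called 1.54% to 10.7% of all genes lower. Library totals (5.96%), median ratios (5.81%) and thinning (5.93%) called none. The cause was not tested, except that a mean of 5 CPM tests fewer genes and leaves out Rps6. Rplp0, Rpl5, Rpl32, Rps3, Rps14 and Rps18 were below 0 in all 18 alternatives, though Rpl5 was at -0.016 and Rps18 at -0.030 without IgG library 1. Signs turned, with no call, for Rpl4 (-0.50) and Rps2 (-0.35) without Exosc10 library 1, for Rpl3 (0.23) and Rps6 (0.11) without IgG library 1, and for Rpl3 (0.0097) and Rps2 (-0.19) without both libraries numbered 1. Leaving out 1 library gave -0.36 to 0.23 for Rpl3, -0.50 to 0.88 for Rpl4, -0.35 to 0.40 for Rps2 and -0.54 to 0.11 for Rps6. It gave -0.56 to -0.27 for Rplp0, -1.09 to -0.41 for Rpl32, -0.79 to -0.48 for Rps3 and -0.86 to -0.41 for Rps14. For these last 4 genes the value smallest in size came without IgG library 2. The summed share was lower with Exosc10 in all 13 alternatives, by -0.140 to -0.00165 percentage points; leaving out Rpl4 was chosen after seeing the data.

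Libraries of the same number deviated together with correlations of 0.34, 0.095, 0.34 and 0.22. Each of the 8 was most like its namesake in the other group. The main fit did not take the numbers as pairs because of the low value for number 2. That choice is open to doubt, since the other correlations and the match of namesakes speak for a link between numbers. As a replicate block, the number gave 3 members called lower (12.0% of genes), at edgeR adjusted p of 0.0258 for Rpl32, 0.0219 for Rps3 and 0.0402 for Rps14. A missed threshold does not show equal levels in both pull-downs.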
